A study of Mus musculus with 12 samples.

Results

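Paired receptors of myeloid cells are described here through 10 mouse genes: Cd200r4, Pilrb1, Pilrb2 and Sirpb1c, which encode activating receptors, and Cd200r1, Pilra, Sirpa, Pirb, Cd300a and Cd300lf, which encode inhibitory ones. They were picked by symbol from a count table of 25919 rows, with their behaviour in these libraries already known. Values were read for 9 of the 10, and Sirpb1c is not analysed here. The comparison is between 2 groups of bulk RNA-seq libraries from the liver of C57BL/6 mice aged 7 weeks. Kupffer day 0 holds 2 libraries labelled Kupffer cells (macrophages that live in the liver sinusoids) at day 0. CD40 day 2 holds 4 libraries whose cell type label is CD40, a receptor of antigen-presenting cells, at day 2. The labels give no treatment, no event from which the days are counted and no way of sorting the cells. They also do not say that each library came from its own animal, so the p-values below measure the spread between libraries, which may be technical. Cell label and day differ together between the groups and cannot be told apart. The labels give 12 samples in 4 groups, and the 6 libraries of the remaining groups were not read by gene, because their values seem to be sorted apart from the gene names.

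Paired receptors are families of surface proteins with closely related extracellular parts and opposite signals. The inhibitory members carry tyrosine motifs in a long cytoplasmic tail that recruit phosphatases such as SHP-1 and SHP-2. The activating members have a short tail and signal through a partner such as DAP12, encoded by Tyrobp, or the Fc receptor gamma chain, encoded by Fcer1g, which engage the kinase SYK. CD200R1 differs from the other inhibitory receptors in that it signals through the DOK2 adaptor and RasGAP. In the liver these receptors are found on Kupffer cells and on monocytes that enter from the blood.

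Positions are those of the GRCm38 build used by the files. Cd200r1 (chromosome 16, 44765736 to 44794978) and Cd200r4 (chromosome 16, 44811733 to 44839150) are neighbours on the plus strand. Pilra (chromosome 5, 137821952 to 137836281), Pilrb1 (137852147 to 137858106) and Pilrb2 (137865827 to 137871815) follow one another on the minus strand. Cd300a (114890041 to 114904654, plus strand) and Cd300lf (115116214 to 115133992, minus strand) lie on chromosome 11 with other CD300 genes between them, and Pirb (3711409 to 3720391, minus strand) on chromosome 7. Sirpa stands apart on chromosome 2 (129592835 to 129632228, plus strand) from Sirpb1c on chromosome 3 (15795145 to 15848528, minus strand). Pilra overlaps Zcwpw1, and Cd300lf overlaps Rab37, each on the opposite strand. Pilrb1 overlaps Gm36551, and Pilrb2 overlaps Gm43495, both annotated as antisense, and whether the counting used strand is not given in the sources used here.

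Close relatives can share reads, so the coding sequences were compared. The libraries were read over 75 bases of cDNA near the 3′ end, and the stretches below show how far 75 bases can separate the pairs. Each is the first stretch of the alignment with the median number of differences for its pair, taken from GENCODE transcripts on GRCm38, and capitals mark the bases that differ within the pair. Pilrb1 and Pilrb2 were identical at 93% of aligned coding bases, and the stretch runs from coding base 21 to 95.
Pilrb1: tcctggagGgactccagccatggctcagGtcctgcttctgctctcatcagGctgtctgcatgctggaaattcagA
Pilrb2: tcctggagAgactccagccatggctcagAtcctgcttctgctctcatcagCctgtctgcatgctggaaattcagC
Cd200r1 and Cd200r4 were identical at 86.8%, and their stretch runs from coding base 233 to 307.
Cd200r1: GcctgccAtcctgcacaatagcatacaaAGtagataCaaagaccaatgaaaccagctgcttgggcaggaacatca
Cd200r4: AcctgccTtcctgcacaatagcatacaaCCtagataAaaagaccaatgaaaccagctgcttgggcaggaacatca
Sirpb1b and Sirpb1c were identical at 98.3%, and their stretch, from coding base 38 to 112, holds no difference.
Sirpb1b and Sirpb1c: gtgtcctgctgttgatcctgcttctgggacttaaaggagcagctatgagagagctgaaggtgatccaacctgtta
Pirb and the activating Pira2 were identical at 95.4%, with 1 difference in the opening 75 coding bases.
Pirb: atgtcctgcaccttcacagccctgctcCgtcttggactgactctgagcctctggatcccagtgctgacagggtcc
Pira2: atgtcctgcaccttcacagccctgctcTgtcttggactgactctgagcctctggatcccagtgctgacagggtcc

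What matters for these libraries is the end of the transcript. Over the last 500 bases, 0% of the 75-base windows of Cd200r1, Cd200r4, Pilra, Sirpa, Pirb, Cd300a and Cd300lf occurred in another gene's transcripts. Pilrb2 shared 23% of its windows and Pilrb1 4.69%, in each case with the other, so the counts of these genes are less certain one by one than as a sum. For Sirpb1c the share was 82.4%, all with Sirpb1a and Sirpb1b. Reads of Sirpb1c may therefore stand under those names or may have been dropped, which was not tested.

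The 6 libraries held between 688498 and 2271228 counts. Cd40 stood at 225 to 382 CPM (counts per 1000000 of a library total corrected by TMM) in CD40 day 2 and at 18.1 and 20.1 in Kupffer day 0, and Clec4f, a Kupffer cell lectin, at 13.7 to 21.2 against 1021 and 1126. Of the marker lists, 11 Kupffer identity genes took 0.427% to 0.5% of the counts in Kupffer day 0 and 0.0216% to 0.0314% in CD40 day 2. The Kupffer libraries also held RNA of other liver cells: 10 sinusoidal endothelial genes took 1.74% to 1.77% there, against 0.0419% to 0.0929% in CD40 day 2. The classical monocyte list (10 genes) took 0.167% to 0.176% against 1.39% to 2%. Stellate cell genes took 0.0963% to 0.119% against 0.00152% to 0.00313%, and hepatocyte genes 0.0559% to 0.137% against 0.00689% to 0.0158%. The 12 neutrophil genes took 0.0995% and 0.332% in Kupffer day 0 a and b, and 0.0941% to 0.18% in CD40 day 2. A further list of 10 pan-myeloid genes, such as Ptprc, Spi1 and Csf1r, took 0.433% to 0.495% in Kupffer day 0 and 1.4% to 2.04% in CD40 day 2. The share of counts taken by myeloid genes therefore moved with the groups, and its part in the results below was not tested. In bulk libraries, fewer cells of a type and less RNA per cell cannot be told apart.

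On the CPM scale, 8 of the 9 receptor genes stood higher in every CD40 day 2 library than in either Kupffer day 0 library and Cd200r1 overlapped, whereas relative to pan-myeloid genes, described further on, 2 stood higher and 5 lower. Among all 9852 genes tested, 66.6% did not overlap, 29.7% standing higher in CD40 day 2 and 36.9% lower. The members were chosen with this contrast known, so their differences are given as a description, with no p-value. The median log2 fold change of the 9 was 1.44, beside -0.10 for all genes tested. All 9 passed the filter on low counts, but Cd200r4 did so through CD40 day 2 alone.

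**Figure D1:**
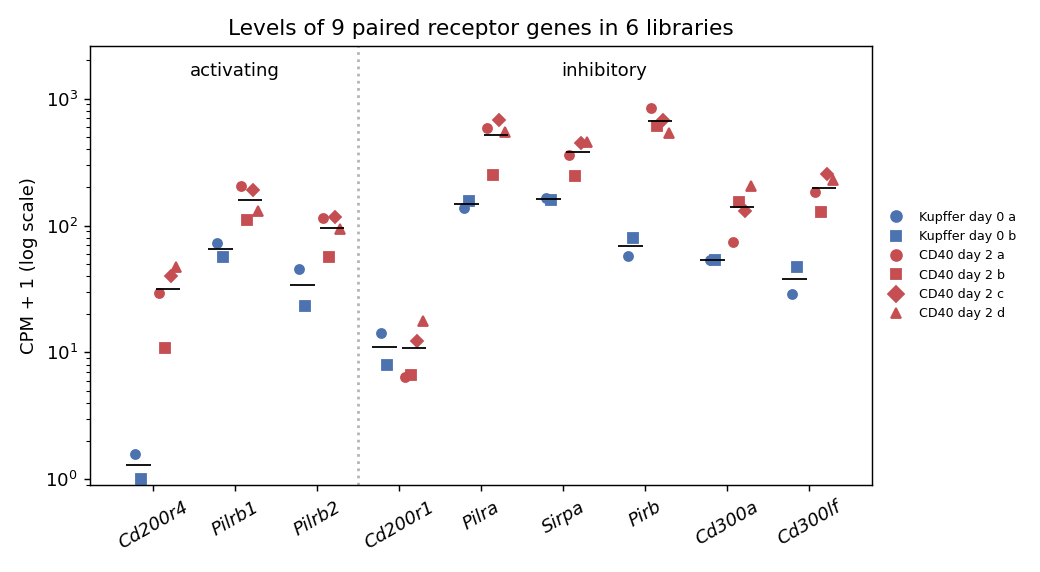
Levels of the 9 receptor genes (CPM plus 1, log scale) in each library, activating genes left of the dotted line and inhibitory genes right of it, with Kupffer day 0 in blue, CD40 day 2 in red and the group mean as a bar. On this scale the groups stand apart for every gene but Cd200r1, and Cd200r4 shows the widest gap, from 0 and 0.574 CPM to 9.9 to 45.9 CPM.

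Cd200r4 encodes an activating CD200 receptor that pairs with DAP12. Its counts were 1 and 0 in the Kupffer libraries a and b and 31, 7, 86 and 77 in the CD40 libraries a to d, which is 0.574 and 0 CPM against 28.2, 9.9, 39.1 and 45.9. It was all but unread in the Kupffer libraries and read in each CD40 library, lowest in b. The ratio of the summed counts, scaled to depth, was 87, with an exact 95% counting interval of 15.4 to 3454 that covers counting error only. The fitted log2 fold change was 6.05 ± 0.95 (SE) and depends on the prior count of the fit. With 1 and 0 Kupffer counts the counting interval is far wider than this SE, which therefore understates the error. Basophils and mast cells are known to carry activating CD200 receptors, so their markers are given beside it. Of the 8 genes on that list, Kit, Hdc and Gata2, which other cells express too, held nearly all the counts: 523, 377 and 85 in the Kupffer group and 54, 153 and 3 in the CD40 group. The genes more particular to these cells were near 0: Mcpt8 had 1 count against 6, Prss34 had 6 against 18, Ms4a2 and Fcer1a each had 0 against 1, and Cpa3 had 0 in all 6 libraries. The part of these cells in the Cd200r4 counts was not tested.

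Its inhibitory neighbour Cd200r1, the receptor for CD200, did not follow. Cd200r1 was at 13.2 and 6.96 CPM in Kupffer day 0 and at 5.46, 5.66, 11.4 and 16.7 CPM in CD40 day 2, with 28 counts in all in the former group and 63 in the latter. The ranges overlapped, and the ratio of summed counts was 0.974 with a counting interval of 0.615 to 1.58. Leaving out a library moved its log2 fold change of -0.04 ± 0.50 (SE) to between -0.40 and 0.58, so no direction can be read from it.

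The 3 genes of the PILR family, which recognises sialylated glycoproteins, stood higher in CD40 day 2 by like amounts on the CPM scale, but not relative to pan-myeloid counts. Pilra, the inhibitory member, was at 137 and 156 CPM in Kupffer day 0 and at 581, 250, 677 and 541 CPM in CD40 day 2. Library b of CD40 day 2 was well below the other 3 and still above both Kupffer libraries. The log2 fold change was 1.82 ± 0.35 (SE). Pilrb1, which encodes an activating receptor that pairs with DAP12, was at 72.3 and 55.7 CPM against 203, 110, 188 and 130 CPM (1.29 ± 0.28). Its neighbour Pilrb2, predicted to act in the same way, was at 44.2 and 22.3 CPM against 114, 55.2, 115 and 93.5 CPM (1.44 ± 0.35). In all 3 genes the lowest CD40 value was that of library b. Without Kupffer day 0 a, the library with the higher level, the log2 fold change of Pilrb2 was 2.09, and without Kupffer day 0 b it was 1.11.

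Sirpa encodes the receptor for CD47, through which a cell holds back phagocytosis. It was at 165 and 157 CPM in Kupffer day 0 and at 359, 243, 447 and 454 CPM in CD40 day 2. The Kupffer libraries stood close together, the CD40 libraries spread over nearly the width of the difference, and the groups did not overlap. The log2 fold change was 1.22 ± 0.26 (SE).

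Pirb had the largest difference among the inhibitory genes. It encodes PIR-B, which binds MHC class I molecules and recruits SHP-1. Its level was 56.8 and 79.4 CPM in Kupffer day 0 and 836, 607, 675 and 539 CPM in CD40 day 2, or 68.1 ± 15.9 (SD, n = 2) against 664 ± 127 (SD, n = 4). Every CD40 library was far above both Kupffer libraries, and Pirb is among the 3 members in which library b was not the lowest. The ratio of summed counts was 10.4 with a counting interval of 8.83 to 12.2, and the log2 fold change was 3.31 ± 0.26 (SE), between 3.06 and 3.55 when a library was left out.

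The CD300 genes among the members are both inhibitory. Cd300lf encodes CD300f, an inhibitory receptor for lipids such as ceramide and phosphatidylserine. It was at 28.1 and 46 CPM in Kupffer day 0 and at 183, 127, 254 and 228 CPM in CD40 day 2, a log2 fold change of 2.49 ± 0.34 (SE). Cd300a encodes an inhibitory receptor for phosphatidylserine and phosphatidylethanolamine. Its level was 52.8 and 52.9 CPM against 72.8, 153, 130 and 203 CPM (1.40 ± 0.36). The Kupffer values of Cd300a were nearly equal, while its CD40 values ran from just above them in library a to the highest in d.

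Summed by kind, the 3 activating genes were at 117 and 78 CPM in Kupffer day 0 and at 345, 175, 341 and 269 CPM in CD40 day 2, a ratio of means of 2.9. The 6 inhibitory genes summed to 453 and 499 CPM against 2037, 1386, 2194 and 1982 CPM, a ratio of 3.99. Neither sum overlapped between the groups, and both were lowest in library b among the CD40 libraries. Library b was the lowest of the 4 for 6 of the 9 genes and the highest for none. Per pan-myeloid counts it was the lowest for 3 and the highest for 2, and library a the lowest for 4. Library b had the lowest share of pan-myeloid counts (1.4%, against 2.01% to 2.04% in the other 3) and the highest share of dendritic cell markers (0.13%, against 0.063% to 0.0782% in the other 3 and 0.0185% to 0.0263% in Kupffer day 0). The part of either in the levels of library b was not tested.

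Because pan-myeloid genes rose between the groups as well (10 of 10 higher by the edgeR quasi-likelihood test, median log2 fold change 2.31), each receptor was also set against their summed counts. Lyz2 held most of that sum, with 7471 counts in the Kupffer group and 87496 in the CD40 group. No other gene of the list had more than 831 and 5129. On that scale the median of all genes tested moved from -0.10 to -2.29 and that of the members from 1.44 to -0.74. Only Cd200r4 and Pirb stayed higher without overlap on this scale, 5 members were lower without overlap, and Pilrb2 and Cd300lf overlapped. Among all genes tested, 3.06% were higher and 85.3% lower without overlap on the same scale.

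**Figure D2:**
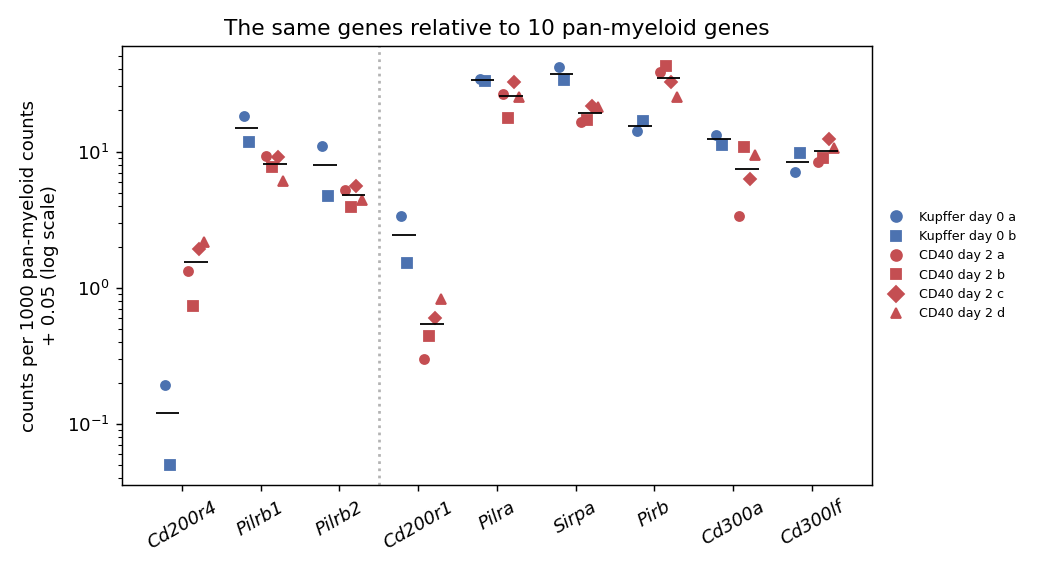
The same 9 genes as counts per 1000 counts of 10 pan-myeloid genes (plus 0.05, log scale), with Kupffer day 0 in blue, CD40 day 2 in red and the group mean as a bar. Cd200r4 and Pirb stay higher in all 4 CD40 libraries, whereas Cd200r1, Pilra, Pilrb1, Sirpa and Cd300a lie lower there. Pilra does so by a narrow margin (32.5 against 32.9) that is not kept when Lyz2 is left out of the sum.

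Per 1000 pan-myeloid counts, Pirb was at 14.2 and 16.7 in Kupffer day 0 and at 38.1, 42.4, 32.4 and 24.9 in CD40 day 2, a ratio of means of 2.23. Cd200r4 was at 0.143 and 0 against 1.29, 0.691, 1.88 and 2.12. These 2 genes kept their direction under both scalings. Cd300lf, at 7.03 and 9.69 against 8.34, 8.89, 12.2 and 10.5, rose about as much as the pan-myeloid genes did, with a ratio of 1.2 and overlapping ranges. Pilra came to 34.1 and 32.9 against 26.5, 17.5, 32.5 and 25.1 (ratio 0.758), and Cd300a to 13.2 and 11.2 against 3.32, 10.7, 6.24 and 9.4 (ratio 0.608). Both were thus higher per library and lower per pan-myeloid count. The same reversal held for Sirpa, the CD47 receptor, at 41.3 and 33.2 against 16.3, 17, 21.5 and 21 (ratio 0.509), and for Pilrb1, at 18.1 and 11.7 against 9.25, 7.7, 9.01 and 6.01 (ratio 0.536). Pilrb2 had a ratio of 0.6. The largest fall among the members on this scale was that of Cd200r1, from 3.3 and 1.47 to 0.249, 0.395, 0.547 and 0.772, a ratio of 0.206. Its log2 fold change with pan-myeloid scaling was -2.28, beside a median of -2.29 for all genes tested. Cd200r1 thus fell about as much as a typical gene, and the other members that fell did so by less. The margin of Pilra was narrow, 32.5 in CD40 day 2 c against 32.9 in Kupffer day 0 b. Without Lyz2 in the sum, the ranges of Pilra overlapped between the groups. Its log2 fold change was -0.40 with pan-myeloid scaling and -0.24 with that scaling without Lyz2.

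Ratios within a family need no scaling between libraries, since both counts come from the same library. Counts of different genes are not on one scale per transcript, so only the change of a ratio between the groups is read. The log2 ratio of Cd200r4 to Cd200r1, with 0.5 added to each count, was -3.97 and -3.46 in Kupffer day 0 and 2.28, 0.74, 1.76 and 1.44 in CD40 day 2. It was higher in all 4 CD40 libraries than in either Kupffer library, and the difference of the means was 5.27. With 1 and 0 counts of Cd200r4 in the Kupffer libraries, their ratios and the size of the difference are set largely by the 0.5 added. The summed counts are 1 activating and 28 inhibitory counts in the Kupffer group, and 201 and 63 in the CD40 group.

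In the PILR family no clear shift of the balance could be read. The summed counts were 259 activating and 350 inhibitory in the Kupffer group, and 1504 and 3211 in the CD40 group. The log2 ratio of Pilrb1 plus Pilrb2 to Pilra was -0.23 and -1.0 in Kupffer day 0 and -0.87, -0.60, -1.16 and -1.28 in CD40 day 2. The groups overlapped, the difference of -0.36 was within the pooled SD of 0.38, and it was 0.02 without Kupffer day 0 a and -0.75 without Kupffer day 0 b. For the SIRP family the activating side was taken from Sirpb1a plus Sirpb1b, a choice made after it was seen that Sirpb1c had no row to read. Their log2 ratio to Sirpa was -4.71 and -3.65 against -3.41, -3.03, -2.93 and -2.81. The CD40 values were all higher, by 1.14 between the means with a pooled SD of 0.44, but the gap to Kupffer day 0 b alone was 0.61 and to Kupffer day 0 a alone 1.67. The activating side of this family held 20 counts in the Kupffer group and 296 in the CD40 group. In the PIR family, with Lilra6, Pira1 and Pira2 summed against Pirb and likewise chosen after the data were seen, the ratio was -4.63 and -4.25 against -5.45, -4.57, -6.01 and -4.12. These ranges overlapped.

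**Figure D3:**
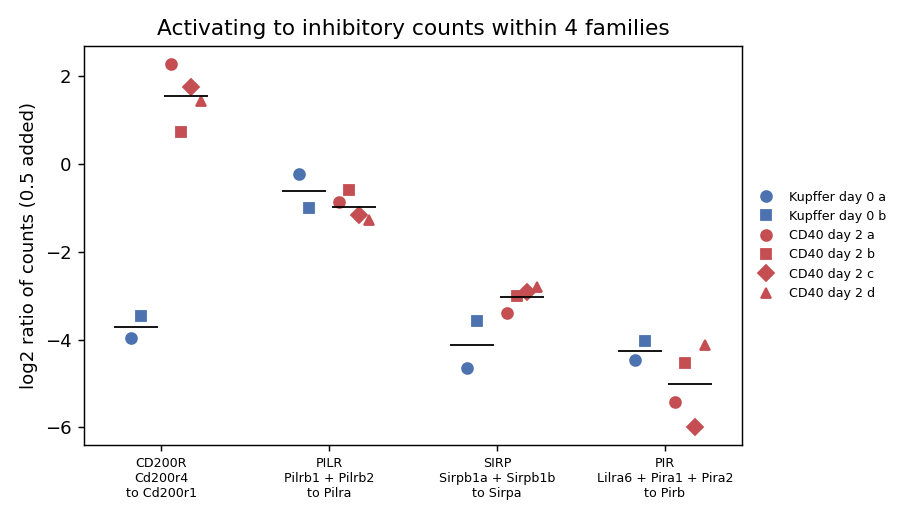
Log2 ratio of activating to inhibitory counts within 4 receptor families (0.5 added to each count in all 4), for each Kupffer day 0 library in blue and CD40 day 2 library in red, with group means as bars. Only the shift between the groups of a family can be read. The CD200R values shift most, with Kupffer values that rest on 1 and 0 counts of Cd200r4, and the SIRP values shift by less. The PILR and PIR values overlap between the groups. In the Kupffer group the activating side held 20 counts for SIRP and 7 for PIR.

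Of 16 relatives outside the 10 genes that had a row, 10 passed the filter on low counts. These 10 were tested with edgeR's quasi-likelihood test, adjusted over all 9852 genes. Among them, Sirpb1a (4 and 1 counts in Kupffer day 0 a and b) and Lilra6 (3 and 3) passed the filter through CD40 day 2 alone. Their tests could hardly have come out lower. Of all genes 53.4% were called, 23.2% higher and 30.2% lower in CD40 day 2. Higher in CD40 day 2 were 5 and lower 2, and the median log2 fold change was 1.06. With pan-myeloid scaling 0 were called higher and 6 lower, where 2.23% of all genes were called higher and 85.7% lower, which is the background of every such count below. Without Kupffer day 0 a 1 was called higher and 2 lower. Lilr4b, an immunoglobulin-like receptor of the gp49 family, rose from 39.1 ± 4.03 CPM (SD, n = 2) to 228 ± 85.6 (SD, n = 4), a log2 fold change of 2.54 ± 0.37 (adjusted p = 0.000321). Sirpb1b, an activating relative of Sirpa, was at 4.02 and 11.1 CPM against 30, 21.2, 46.9 and 50.6 CPM (2.58 ± 0.51, adjusted p = 0.00195), and its near copy Sirpb1a had a log2 fold change of 2.28 ± 0.68 (adjusted p = 0.0181). Lilra6, an activating PIR relative that shares 29.1% of its end windows with Pira2, Pirb and others, had one of 2.85 ± 0.68 (adjusted p = 0.00554). These 4 genes were not called with pan-myeloid scaling, and Sirpb1a, Sirpb1b and Lilra6 were also not called without Kupffer day 0 a, nor Sirpb1a without Kupffer day 0 b. Cd300d, an older symbol of Cd300c2, rose from 107 and 121 CPM to 179, 219, 274 and 400 (1.24 ± 0.31, adjusted p = 0.00689) and was called lower with pan-myeloid scaling and not called without Kupffer day 0 a.

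The 2 relatives that fell on the CPM scale were also called lower with pan-myeloid scaling. Lilra5, an activating receptor, was at 60.3 and 66.8 CPM in Kupffer day 0 and at 3.64, 2.83, 8.19 and 7.74 CPM in CD40 day 2 (log2 fold change -3.31 ± 0.32, adjusted p = 2.28e-05). Cd300lg, a CD300 relative known from endothelial cells, was at 400 and 440 CPM against 9.1, 7.07, 13.2 and 9.53 CPM (-5.34 ± 0.21, adjusted p = 2.37e-07). The endothelial list fell between the groups too, and its part in this was not tested. Cd300e, Cd300lb and Cd300ld did not pass the test on the CPM scale, with log2 fold changes of 0.39, 0.87 and -0.33. With pan-myeloid scaling these genes were called lower (-1.79, -1.41 and -2.55). Cd200r2 and Cd200r3, the other activating CD200 receptors, had 1 and 3 counts in the Kupffer group and 2 and 1 in the CD40 group, so of the activating CD200 receptors read, only Cd200r4 reached more than 3 counts in a group. Pira1, Pira2, Cd300c and Cd300lh were also too low to test, with at most 8 counts in a group.

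The adaptors and kinases through which the activating receptors signal were all higher on the CPM scale (14 of 14 tested, median 2.06). With pan-myeloid scaling, however, 2 were called higher, Lat2 among them, and 2 lower, Hcst and Lyn. Card9 (8 and 2 counts in Kupffer day 0 a and b) and Pik3cg (11 and 4) passed the filter on low counts through CD40 day 2 alone. These genes could hardly have been called lower on the CPM scale. Pik3cd was too low to test. Tyrobp, which encodes DAP12, the partner of CD200R4 and PILRB, was at 1058 and 1379 CPM against 4621, 4159, 4788 and 5406 CPM. Fcer1g was at 1217 and 1368 CPM against 6935, 4913, 7091 and 7485 CPM. The groups stood apart for both, with log2 fold changes of 1.96 and 2.35, and neither was called with pan-myeloid scaling (-0.18 and 0.18). Lat2, an adaptor downstream of these partners, rose from 12.4 ± 6.13 to 257 ± 9.07 CPM (4.52 ± 0.28, adjusted p = 1.85e-06). Vav1, an exchange factor, rose from 78.9 ± 2.72 to 567 ± 69.1 CPM and the kinase Fgr from 40.5 ± 3.73 to 287 ± 21.1 CPM. Both calls were lost with pan-myeloid scaling but kept when Lyz2 was left out of the sum.

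On the inhibitory side, 6 of 10 tested effectors were higher, 1 lower and 3 not called (median 0.88), whereas with pan-myeloid scaling 1 was higher and 7 lower, and without Kupffer day 0 a 3 were higher and 0 lower. Ptpn6, which encodes SHP-1, was the gene called higher under both scalings. It was at 113 and 114 CPM in Kupffer day 0 and at 1107, 985, 1009 and 941 CPM in CD40 day 2 (3.16 ± 0.18, adjusted p = 1.16e-06), and with pan-myeloid scaling its log2 fold change was 1.01 (adjusted p = 0.00546). Ptpn11, which encodes SHP-2, was at 79.8 and 73.8 CPM against 59.2, 69.3, 106 and 80.4 CPM and did not pass the test. The phosphatases that the inhibitory tails recruit thus differed in their values: on the CPM scale Ptpn6 rose and the Ptpn11 values overlapped. With pan-myeloid scaling Ptpn11 was called lower (-2.13). Sla, an adaptor that lowers receptor levels, and Csk, which restrains Src kinases, had log2 fold changes of 2.35 ± 0.24 and 1.56 ± 0.20 (adjusted p = 3.24e-05 and 0.000151). Dok3, an inhibitory adaptor, had one of 1.52 ± 0.32 (adjusted p = 0.00311). Sla and Csk were not called with pan-myeloid scaling. Dok3 was then called lower, a call not kept when Lyz2 was left out of the sum, and was not called without Kupffer day 0 a. Inpp5d, which encodes the lipid phosphatase SHIP1, and Cbl, a ubiquitin ligase, also passed (0.58 and 0.70), but were not called by DESeq2 or when either Kupffer library was left out, and were called lower with pan-myeloid scaling (-1.55 and -1.49). Cblb did not pass, and was called lower with pan-myeloid scaling (-1.84). The 2 genes downstream of CD200R1, named after their values were seen, were Dok2 at 68.3 and 47.4 CPM against 144, 32.5, 161 and 144 CPM (1.06, adjusted p = 0.0953) and Rasa1, which encodes RasGAP. Both were called lower with pan-myeloid scaling (-1.21 and -4.35). Rasa1 fell from 41.3 and 26.5 CPM to 5.46, 2.83, 13.2 and 7.15 CPM (-2.10 ± 0.42, adjusted p = 0.00212), a call not kept without Kupffer day 0 a.

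**Figure D4:**
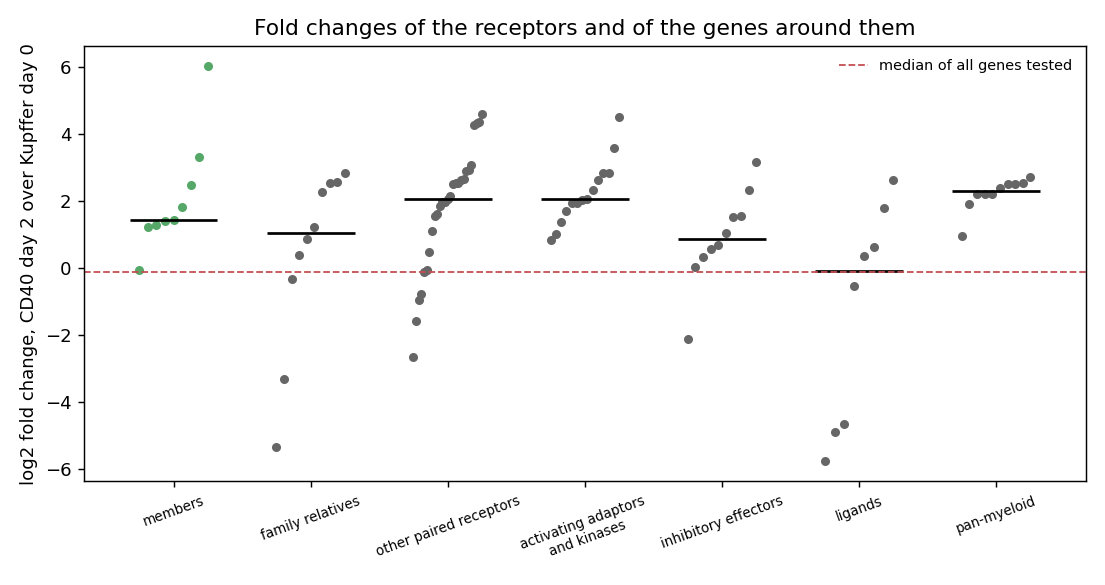
Log2 fold change of CD40 day 2 over Kupffer day 0 for each tested gene, on the CPM scale, for the 9 receptor genes in green and 6 lists around them in grey, with the median of each as a bar and the median of all genes tested as a dashed line. The receptor genes, the adaptors and kinases and the pan-myeloid genes lie mostly above the dashed line (medians 1.44, 2.06 and 2.31), and the ligands spread to both sides of it. With pan-myeloid scaling the median of the receptor genes is -0.74 and that of the adaptors and kinases -0.16.

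Other activating and inhibitory myeloid receptors moved in the same direction for the most part: 20 of 27 tested were higher and 2 lower, with a median of 2.06, but 5 were higher and 8 lower with pan-myeloid scaling. The 5 that stayed higher were Slamf7, Slamf8, Clec5a, Clec4e and Klra2, and the 5 that did not pass on the CPM scale were Cd33, Siglece, Clec4b1, Vsir and Cd84. Slamf7, a receptor of the SLAM family, rose from 14 ± 1.9 to 332 ± 50.4 CPM (4.60 ± 0.26, adjusted p = 1.17e-06) and Slamf8, of the same family, from 24.5 ± 1.12 to 515 ± 56.2 CPM (4.38 ± 0.22, adjusted p = 6.6e-07). Clec5a, a lectin that pairs with DAP12, was at 10.3 and 9.75 CPM against 228, 90.5, 249 and 247 CPM (4.33 ± 0.49, adjusted p = 5.8e-05). Clec4e, which encodes Mincle, a lectin for mycobacterial and damage ligands that uses the Fc receptor gamma chain, was at 19.5 and 43.2 CPM against 611, 226, 793 and 602 CPM (4.27 ± 0.56, adjusted p = 0.000153). Library b was again the lowest CD40 library for both lectins. The 2 genes that fell, named after their values were seen, encode inhibitory receptors. Fcgr2b, the inhibitory Fc receptor, was at 2281 and 2005 CPM against 362, 160, 365 and 465 CPM (-2.65 ± 0.31, adjusted p = 8.12e-05), and Ceacam1 at 56.3 and 37.6 CPM against 10.9, 7.07, 22.8 and 18.5 CPM (-1.57 ± 0.36, adjusted p = 0.00463). Fcgr2b is also on the endothelial list, and the call of Ceacam1 was not kept without Kupffer day 0 a.

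Of the ligands, 3 of 8 tested were higher, 4 lower and 1 not called (median -0.08), and 0 were higher and 6 lower with pan-myeloid scaling. Without Kupffer day 0 a, 0 were higher and 3 lower. B2m, the light chain of MHC class I, which PIR-B binds, was at 7468 and 8718 CPM against 13507, 13325, 10913 and 12836 CPM (0.64 ± 0.18, adjusted p = 0.0121), and was called lower with pan-myeloid scaling and not called without Kupffer day 0 a. Thbs1, a secreted protein that binds CD47, was at 4.02 and 8.36 CPM against 36.4, 9.9, 40.1 and 44.1 CPM (2.64 ± 0.60, adjusted p = 0.00426), a call lost with pan-myeloid scaling and without Kupffer day 0 a. Npdc1, a reported ligand of PILRα, fell from 261 ± 9.96 to 9.28 ± 9.76 CPM (-4.88 ± 0.50, adjusted p = 3.24e-05). Clec4g, a lectin of sinusoidal endothelial cells, fell from 6836 ± 877 to 125 ± 78 CPM (-5.77 ± 0.42, adjusted p = 3.94e-06). The rest are named after their values were seen. Cd47, the ligand of SIRPα, was at 1164 and 1336 CPM against 885, 945, 822 and 829 CPM (-0.52 ± 0.15, adjusted p = 0.0144), and its call was not kept without Kupffer day 0 b. On the CPM scale it was thus lower where Sirpa was higher. With pan-myeloid scaling Cd47 was called lower (-2.64) and Sirpa was lower as well (-0.98). Angptl2, a ligand of PIR-B, also fell (-4.66 ± 0.73, adjusted p = 0.000476). Mag, a ligand of paired Ig-like receptors on neurons, rose (1.80 ± 0.62, adjusted p = 0.0319), with libraries that overlap. Angptl2 (2 counts in the CD40 group) passed the filter on low counts through Kupffer day 0 alone. Mag (6 and 4 counts in Kupffer day 0 a and b) passed it through CD40 day 2 alone. Their tests could hardly have come out the other way. The call of Mag was lost with pan-myeloid scaling (-0.42) and when Kupffer day 0 a or b or CD40 day 2 c or d was left out. Rtn4 did not pass, and was called lower with pan-myeloid scaling (-1.83). Cd200 was too low to test, with 6 counts in the Kupffer group and 25 in the CD40 group, 14 of them in library b.

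For the likeness of the profile, log2(CPM + 1) of the summed receptors was correlated with that of 5661 other genes over the 6 libraries. The groups stand apart, so these correlations mostly follow the difference between them, and they are descriptions. The genes most like the activating sum were Gbp9 (Pearson r 0.9963), Cers6 (0.9952) and Vamp4 (0.9922). Those most like the inhibitory sum were Adora2b (0.9990), Gda (0.9990) and Ifih1 (0.9988). All 6 share the dip in library b. Gbp9, for example, was at 33.3 and 23.7 CPM against 69.2, 42.4, 70.6 and 54.2 CPM, and Gda at 16.7 and 20.9 CPM against 180, 102, 216 and 160 CPM.

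The promoters were read because members of the PILR family moved together. RefSeq (GRCm38.p6) gave one for 8 of the 10 genes, without Cd200r1 and Sirpa. The 250 bases before the start were searched on both strands for GAAA followed after any 2 bases by GAAA, the core of the interferon-stimulated response element, for GAGGAAGT, a site of PU.1 and other ETS factors, and for TTCNNNGAA, the site of STAT factors. The interferon-stimulated core was found in Pilra, Pilrb1 and Pilrb2, which is 3 of 8, and in 2.98% of 32851 promoters. The windows below hold it in capitals, 168, 222 and 222 bases before the start. The coding sequences of these genes are 85.2% to 93% identical, and the windows of Pilrb1 and Pilrb2 are the same letters, so these are not separate cases.
Pilra, chr5:137836422-137836481, minus strand: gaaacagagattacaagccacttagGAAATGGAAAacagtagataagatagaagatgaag
Pilrb1, chr5:137858240-137858299, minus strand: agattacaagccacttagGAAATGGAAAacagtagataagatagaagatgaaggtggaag
Pilrb2, chr5:137871949-137872008, minus strand: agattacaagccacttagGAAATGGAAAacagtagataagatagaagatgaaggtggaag
GAGGAAGT was found in 1 of 8, Pirb, 112 bases before its start, and in 2.44% of all promoters.
Pirb, chr7:3720469-3720528, minus strand: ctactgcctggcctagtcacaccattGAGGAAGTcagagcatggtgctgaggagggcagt
Pira1, Pira2 and Lilra6, relatives of Pirb, hold it too, and so does Cd300ld. The interferon-stimulated core is also present in the relatives Sirpb1a, Sirpb1b and Cd300c. TTCNNNGAA was found in 1 of 8, Sirpb1c, and in 7.02% of all promoters. Among the relatives, Sirpb1a, Sirpb1b, Lilra5, Lilr4b and Cd300e hold TTCNNNGAA. A match says that the letters are there and not that a factor binds them.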

How the data were processed

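RNA was sequenced from the 3′ end, with a sample barcode and a molecular identifier added at reverse transcription, per the labels' protocols. The authors deposited raw counts, whole numbers per gene symbol. The submitters' processing notes name GRCm38.p6 and DESeq2 1.22.2. For the aligner, the annotation and the choice between reads and identifiers in counting, nothing is given in the sources used here. Columns are headed by group without a replicate number, and letters a to d only name them in their order. Of 12 columns, 6 were used; 17 rows with a date in place of a symbol were kept as rows of no named gene.

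The 6 libraries were fitted with edgeR 4.0.16 in R 4.3.3 (TMM, filterByExpr, quasi-likelihood test, two-sided, no block) with Benjamini-Hochberg adjustment over 9852 genes and a threshold of 0.05. The biological coefficient of variation was 20.4%. Counting intervals are exact conditional binomial (scipy 1.17.1) and cover counting error only. Libraries of a group differed beyond sampling noise in every pair (chi-square over its degrees of freedom, 2.9 to 10.1). Alternatives were RLE factors, DESeq2 1.42.0, scaling to summed pan-myeloid counts (10 genes, or 9 without Lyz2, the latter added after seeing the data), other filters and leaving out each library.

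The members and the lists were chosen with earlier results of these data known. Named genes are the members, all relatives read, and from each other list the 4 largest log2 fold changes among called genes without overlap and with a mean of at least 20 CPM; other genes were named after their values were seen, and 1 gene of the rule is not reported here. For likeness, the 3 genes with the highest correlation were taken. Sequences were aligned with Biopython 1.88.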

Additional observations from a re-analysis of the deposited data

Results flagged for a closer look

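Within the 4 CD40 day 2 libraries, 39 genes and ratios were examined for a library standing apart, and chance marks about 1 in 20 such groups. Clec5a, the lectin that pairs with DAP12, was at 90.5 CPM in library b and at 228, 247 and 249 CPM in the other 3, a gap of 0.865 of the whole range. Clec4g, the endothelial lectin among the ligands, was at 241 CPM in library a against 75, 83.4 and 102 CPM in the others, a gap of 0.835 of the range. None of the 9 receptors read was marked.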

How the results depend on the processing

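With library sizes set to the summed pan-myeloid counts, 8667 genes were called in place of 5262 (220 higher and 8447 lower, in place of 2288 and 2974), or 8643 without Lyz2. On that scale 13 of the other paired receptors were called in place of 22, and 4 of the adaptors and kinases in place of 14, or 6 without Lyz2. The median of the receptor genes was then -0.74 in place of 1.44, or -0.60 without Lyz2. With at least 10 counts in 4 libraries, 4 ligands were called in place of 7. Leaving out each library in turn gave 3206 to 5514 calls over all genes, 3 to 7 for the relatives, 3 to 8 for the inhibitory effectors and 3 to 8 for the ligands, the lowest each time without Kupffer day 0 a. It gave differences of the log2 ratio of -0.75 to 0.02 for PILR and 0.61 to 1.67 for SIRP. For Cd200r4 the log2 fold change without Kupffer day 0 a was 8.38. A group left with 1 library is assumed to vary like the other. The causes were not tested. Under RLE factors and DESeq2, the counts named here stayed within 1.5 times the values first given, with 4465 calls over all genes by DESeq2. No paired analysis was possible because the columns carry no replicate numbers, so the planned replicate block was not run. Depth limits Cd200r1, Cd200r4 and the genes with few counts most.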
